A study of Mus musculus with 11 samples.

Results

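The genes described are the adhesive cadherins, the plaque proteins and the corneodesmosome protein of the desmosome in mouse skin. They are the desmogleins Dsg1a, Dsg2 and Dsg3, the desmocollins Dsc1, Dsc2 and Dsc3, the plaque proteins Dsp, Pkp1 and Jup, and Cdsn. They were chosen by name, as the probesets whose annotation gives 1 of these 10 symbols and no other gene, and they account for 150 of the 211507 probesets and 10 of the 20352 genes measured. A gene's value is the median of its probesets' log2 values from RMA, a method that corrects background, equalises the arrays and summarises probes, so that 1 unit is a 2-fold difference.

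The 11 arrays held 5 keratoacanthomas, squamous skin tumours of keratinocytes, and 6 normal skins. All 5 tumours came from mice that carried K14-Cre together with the Zmiz1 transgene. Of the normal skins, 2 (normal skin 1 and 2) came from mice with the same pair of transgenes, 2 (3 and 4) from mice with K14-Cre alone and 2 (5 and 6) from mice with the Zmiz1 transgene alone. No group was without a transgene. K14-Cre is named for the keratin 14 promoter, which is active in basal keratinocytes; the promoter of the Zmiz1 transgene, the age and the strain of the mice were not given in the sources used here. The labels did not say whether each piece came from its own animal, so p-values measure the spread between pieces.

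Desmosomes are spot-like junctions that hold keratinocytes together and anchor their keratin filaments. Desmogleins and desmocollins bind each other across the gap between cells, plakoglobin (Jup) and plakophilin 1 (Pkp1) bind the cadherin tails, and desmoplakin (Dsp) ties this plaque to keratin. In resting epidermis Dsg3 and Dsc3 prevail in the lower layers and Dsg1 and Dsc1 in the upper layers. Corneodesmosin (Cdsn) is added to the junctions before proteases cut them in the stratum corneum and cells are shed.

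The tissue pieces differed in make-up. The mean of 6 keratinocyte markers was 10.90 to 10.995 in the tumours and 9.98 to 10.53 in normal skin, and 3 of the 6 were called higher. The mean of 6 skeletal muscle markers was 5.45 to 7.42 in the tumours and 10.55 to 11.76 in normal skin, and all 6 were called lower. Fat cell markers had means of 6.06 to 7.47 in the tumours and 7.91 to 9.06 in normal skin, and fibroblast markers 7.30 to 8.60 in the tumours and 8.89 to 9.71 in normal skin. The part of these tissues in the changes given next was not tested. A mean of 8 measured pan-epithelial genes (Krt5, Krt14, Trp63, Cdh1, Esrp1, Esrp2, Grhl2 and Rab25) was 9.36 to 9.54 in the tumours and 8.13 to 9.15 in normal skin, with the lowest value in normal skin 2. In bulk tissue, more keratinocytes and more RNA of a gene per keratinocyte cannot be told apart. Hair keratins stood apart in 3 arrays, with a mean over 12 genes of 8.83 in keratoacanthoma 4, 9.99 in normal skin 1 and 9.68 in normal skin 3, against 5.81 to 6.33 in the other 8.

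Of the 10 genes, 6 were higher and 2 lower in keratoacanthoma than in normal skin, and 2 were not called. Dsc2, Dsg3 and Dsc1 rose most, by 6.06-fold, 3.83-fold and 3.21-fold, and Dsc3, Pkp1 and Jup rose by 1.47-fold to 1.49-fold. Dsg1a was 1.73-fold and Dsg2 1.41-fold lower, and Dsp and Cdsn did not pass the test (limma, Benjamini-Hochberg adjusted p below 0.05 over all 20352 genes). Over all genes 14.5% were called higher and 10.8% lower, and the median log2 change was -0.04 over all genes and 0.57 over the 10. With arrays centred on their median, 3485 genes were higher and 1677 lower, in place of 2959 and 2200. The arrays of the groups did not overlap for 5 of the genes that rose and for both that fell, where 9.66% of all genes lay wholly higher and 6.31% wholly lower.

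**Figure D1:**
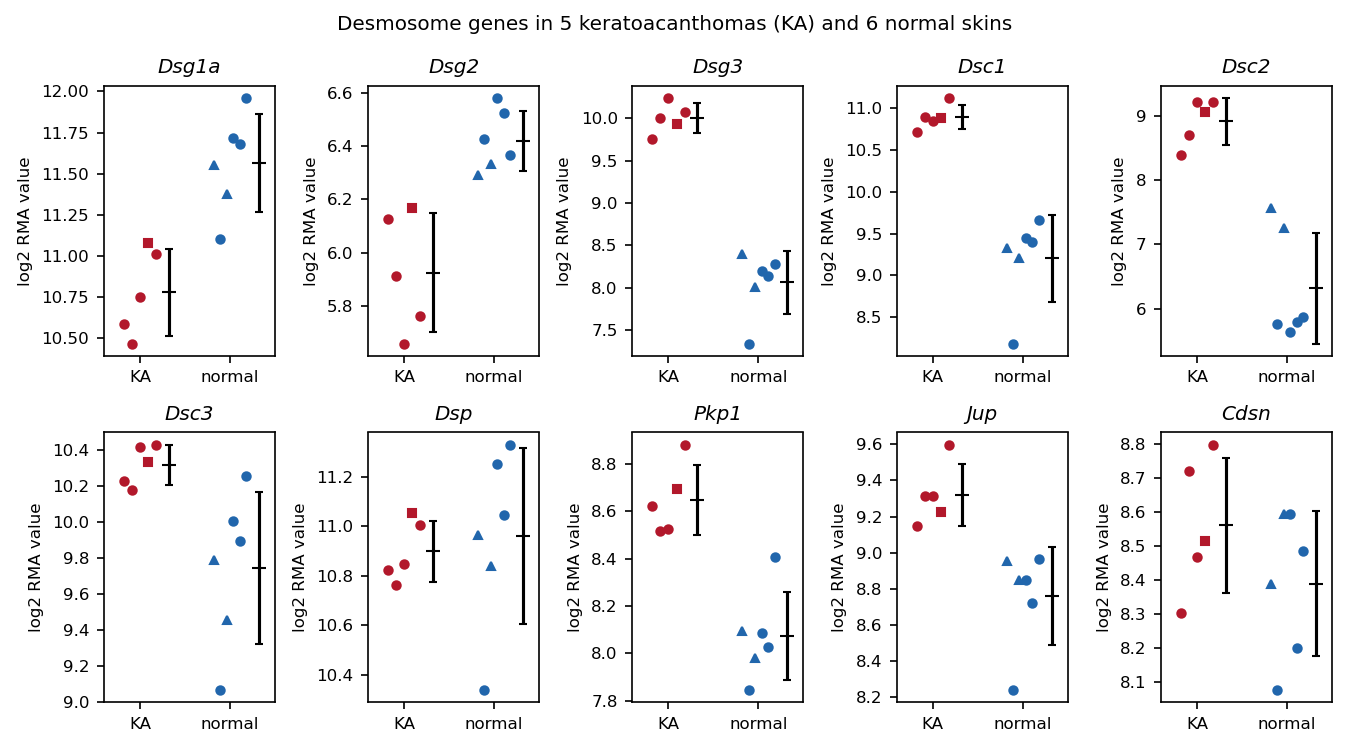
Log2 RMA values (y axis, a scale of its own in each panel) of the 10 genes in 5 keratoacanthomas (KA, red) and 6 normal skins (blue), 1 point per array, with the mean and SD in black. Triangles mark normal skin 1 and 3 and squares keratoacanthoma 4, the arrays high in hair keratins. Red and blue points are apart for Dsg1a, Dsg2, Dsg3, Dsc1, Dsc2, Pkp1 and Jup.

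Of the 3 desmogleins, Dsg3, the cadherin of lower epidermal layers and the autoantigen of pemphigus vulgaris, was the one that rose. Keratoacanthomas 1 to 5 had 9.75, 10.001, 10.23, 9.93 and 10.07, and normal skin had a lowest value of 7.34, a median of 8.17 and a highest value of 8.39. Every tumour lay above every normal skin, and normal skin 2 lay below the remaining normal skins. The log2 change was 1.94 (SE 0.17, adjusted p = 7.6e-06), with 9.997 ± 0.18 (SD, n = 5) in the tumours and 8.06 ± 0.38 (n = 6) in normal skin. All 17 probesets of Dsg3 were higher, by 1.15 to 3.08.

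Dsg2, a desmoglein of simple epithelia and heart that is sparse in resting interfollicular epidermis, moved the other way. The tumours had 6.13, 5.91, 5.66, 6.17 and 5.76, and normal skin had 6.29 at the lowest, 6.40 at the median and 6.58 at the highest. The groups did not overlap, but the gap between them was small, and the log2 change was -0.50 (SE 0.11, adjusted p = 0.0064). Its probesets were mixed: 4 of 18 were lower, none was higher past the test, 5 had a positive change, and 3 were dim, with a mean below the 25th percentile of all probesets. One probeset, 10454188, fell by 1.94, and fell further than the rest of the gene (by 1.44 relative to the gene's median, adjusted p = 0.025).

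Dsg1a is 1 of 3 mouse genes for desmoglein 1, the upper-layer desmoglein that pemphigus foliaceus autoantibodies bind. Its value rests on 1 probeset. The tumours had 10.58, 10.46, 10.75, 11.08 and 11.01, and normal skin had 11.10 at the lowest, 11.62 at the median and 11.96 at the highest. Every tumour was lower than every normal skin, although keratoacanthoma 4 and normal skin 2 were close to each other. This gave a log2 change of -0.79 (SE 0.16, adjusted p = 0.0031).

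The other copies of desmoglein 1 went the opposite way. Dsg1b, over 4 probesets, had 9.18, 9.12, 9.04, 8.74 and 9.46 in the tumours, and 6.34, 7.24 and 7.76 as the lowest, median and highest value in normal skin. Its log2 change was 1.90 (SE 0.23, adjusted p = 8.3e-05). Dsg1c, over 7 probesets, had 6.70, 6.30, 6.55, 7.06 and 6.80 in the tumours, and 4.41, 4.85 and 5.59 in normal skin, a log2 change of 1.69 (SE 0.21, adjusted p = 0.00011). The groups were apart for both genes. The normal skin median of Dsg1c lay below the 25th percentile of all probesets (4.96) and 2 of its 7 probesets were dim, so the size of its change is uncertain; without dim probesets it was 1.40 (adjusted p = 0.0017). Another 14 probesets are annotated to more than 1 of these genes, and their mean was 11.06, 11.05, 11.11, 11.02 and 11.29 in the tumours and 9.92 to 11.04 in normal skin. This shared signal was higher by 0.51 in the tumours, with overlap between keratoacanthoma 4 and normal skin 6 (exact two-sided permutation p = 0.032, n = 5 and 6). All 14 had a positive change, of 0.06 to 1.40. The copies are near-identical in sequence, so single values of each are uncertain where a probe may bind more than 1 of them.

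**Figure D2:**
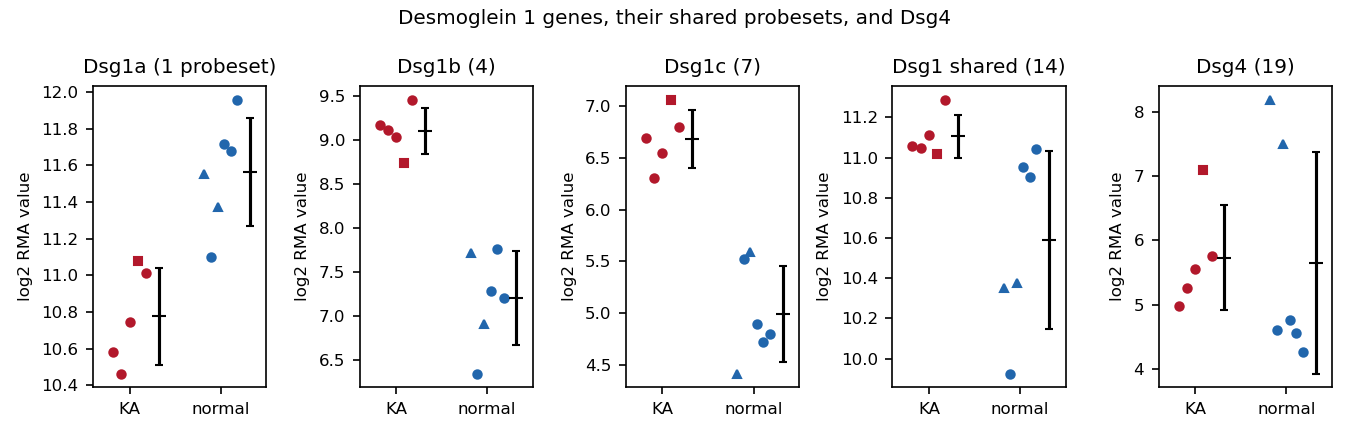
Log2 RMA values (y axis, a scale of its own in each panel) by array for Dsg1a, Dsg1b, Dsg1c, the mean of the 14 probesets annotated to several Dsg1 genes, and Dsg4, with the number of probesets in brackets; red is keratoacanthoma (KA), blue normal skin, black the mean and SD, triangles and squares the arrays high in hair keratins. Dsg1a is lower in the tumours, Dsg1b and Dsg1c are higher, and Dsg4 is highest in the arrays marked by triangles and the square.

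All 3 desmocollins were higher. Dsc2, the widespread desmocollin of simple epithelia and heart, changed most of the 10 genes. The tumours had 8.39, 8.70, 9.21, 9.06 and 9.21. Normal skin 1 and 3, the skins high in hair keratins, had 7.56 and 7.26, and the remaining 4 had 5.63 to 5.87. All tumours were above all normal skins, and the skins themselves formed a higher pair and a lower set of 4. On the log2 scale the change was 2.60 (SE 0.35, adjusted p = 0.00019), and without the pair it was 3.15 (adjusted p = 6.4e-07). The part of the hair follicle in the Dsc2 level of those skins was not tested.

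Dsc1, the desmocollin of the suprabasal layers, had 10.71, 10.89, 10.84, 10.88 and 11.11 in the tumours, and a lowest value of 8.19, a median of 9.36 and a highest value of 9.66 in normal skin. The 5 tumours lay close together and wholly above normal skin, and normal skin 2 was again the lowest. Dsc1 rose by 1.68 on the log2 scale (SE 0.21, adjusted p = 0.00012), and without normal skin 2 it was 1.48. All 21 probesets of Dsc1 were higher, by 0.70 to 3.12, as were 19 of the 20 of Dsc2, by 1.01 to 3.79 over all 20.

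Dsc3, the basal layer desmocollin that pairs with Dsg3, had the smallest change of the 3. The tumours had 10.23, 10.18, 10.42, 10.34 and 10.43, against 9.07, 9.84 and 10.26 as the lowest, median and highest value in normal skin. Normal skin 6 lay within the range of the tumours, and the log2 change was 0.57 (SE 0.18, adjusted p = 0.033). All 16 probesets of Dsc3 had a positive change, and 4 of them passed the test. The call was lost without keratoacanthoma 3 (adjusted p = 0.072), keratoacanthoma 4 (0.060), keratoacanthoma 5 (0.075) or normal skin 3 (0.065), and without both skins high in hair keratins (0.094), and after quantile normalization of the gene values (0.16).

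Of the 3 plaque genes, Jup and Pkp1 were higher. Jup, plakoglobin, a relative of beta-catenin that links cadherins to desmoplakin, had 9.15, 9.31, 9.31, 9.23 and 9.60 in the tumours, and 8.24, 8.85 and 8.96 as the lowest, median and highest value in normal skin. The groups were apart, with keratoacanthoma 5 the highest and normal skin 2 the lowest. The log2 change was 0.56 (SE 0.14, adjusted p = 0.010), and after quantile normalization of the gene values it was 0.26 and not called (adjusted p = 0.18). All 15 probesets of Jup had a positive change and 8 were called.

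Pkp1, the plakophilin that strengthens desmosomes in suprabasal cells, had 8.62, 8.51, 8.53, 8.69 and 8.88 in the tumours, and 7.85, 8.06 and 8.41 as the lowest, median and highest value in normal skin. Again the groups did not overlap, and normal skin 6 came nearest to the tumours. Pkp1 rose by 0.57 on the log2 scale (SE 0.11, adjusted p = 0.0026), and 12 of 14 probesets had a positive change, of which 3 were called.

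Dsp, desmoplakin, which carries the load between plaque and keratin filaments, had 10.82, 10.76, 10.85, 11.05 and 11.004 in the tumours, and 10.34, 11.004 and 11.33 as the lowest, median and highest value in normal skin. The tumours lay inside the range of normal skin. The log2 change was -0.06 (95% interval -0.40 to 0.28, adjusted p = 0.82). Of its 26 probesets, limma called 0, with 1 at an unadjusted p below 0.05, and the changes ran from -0.38 to 0.69.

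Jup and Dsp, a plaque gene that was higher and one that was not called, are shown with the sequence before their starts. Of the 10 genes, 3 had an entry in the RefSeq promoter table (build GRCm38.p6). The 200 bases before the outermost annotated base of each gene are given 5′ to 3′, chr11:100397840-100398039 on the minus strand for Jup and chr13:38151094-38151293 on the plus strand for Dsp, with GC boxes (GGGCGG, either strand) in capitals.
Jup: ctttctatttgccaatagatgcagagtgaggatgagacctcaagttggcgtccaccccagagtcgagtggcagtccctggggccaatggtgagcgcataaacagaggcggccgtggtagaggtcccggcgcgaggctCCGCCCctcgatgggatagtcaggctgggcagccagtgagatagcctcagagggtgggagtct
Dsp: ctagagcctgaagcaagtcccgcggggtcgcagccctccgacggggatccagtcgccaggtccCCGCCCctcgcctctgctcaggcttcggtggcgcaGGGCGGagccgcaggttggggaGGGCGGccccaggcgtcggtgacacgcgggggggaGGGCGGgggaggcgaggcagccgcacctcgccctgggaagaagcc
The Jup window held 1 GC box and the Dsp window 4, where 31.05% of the 200-base windows before the starts of 32851 promoters in the table held at least 1. No AP-1 letters (TGACTCA or TGAGTCA, in 3.66% of windows), grainyhead letters (AACCGGTT, in 0.08%) or TATAAA (in 9.96%) were found in either window on either strand.

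Cdsn, corneodesmosin, had 8.30, 8.72, 8.47, 8.52 and 8.80 in the tumours and 8.07, 8.44 and 8.59 as the lowest, median and highest value in normal skin. The groups overlapped widely, and the log2 change was 0.17 (95% interval -0.11 to 0.45, adjusted p = 0.37). It was measured by 2 probesets, of which limma called 0 and neither had an unadjusted p below 0.05; their changes were -0.04 and 0.39.

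Over the 150 probesets, 72 were higher and 5 lower, where 8.29% of all single probesets were higher and 6.98% lower. Of the 72, Dsc1 gave 21, Dsc2 19 and Dsg3 17, and the rest were in Jup, Dsc3 and Pkp1. Of the 5, Dsg2 gave 4. Probesets of 1 gene are not independent, so these counts mostly reflect few genes. Every probeset of Dsg3, Dsc1, Dsc2, Dsc3 and Jup had a positive change. Unequal change within a gene was tested on the difference between a probeset and the median of its gene. Only genes of at least 4 probesets were tested, which left out Dsg1a and Cdsn. Unequal change was called for 3 that rose more, near the share of 1.64% over all probesets tested. It was called for 6 that rose less or fell more, where the share over all was 2.44%. These 9 lay in Dsg3, Dsc1, Dsc2 and Dsg2. Probeset 10457716 of Dsc1, at 11.71 in the tumours and 11.01 in normal skin, rose by 0.70, whereas 10457727, at 9.33 in the tumours and 6.21 in normal skin, rose by 3.12. In Dsc2, 10457691 was at 9.12 in the tumours and 8.11 in normal skin and rose by 1.01, and 10457700 was at 7.96 in the tumours and 4.16 in normal skin and rose by 3.79. The last level in normal skin lay below the 25th percentile of all probesets (4.96), so the size of that change is uncertain.

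**Figure D3:**
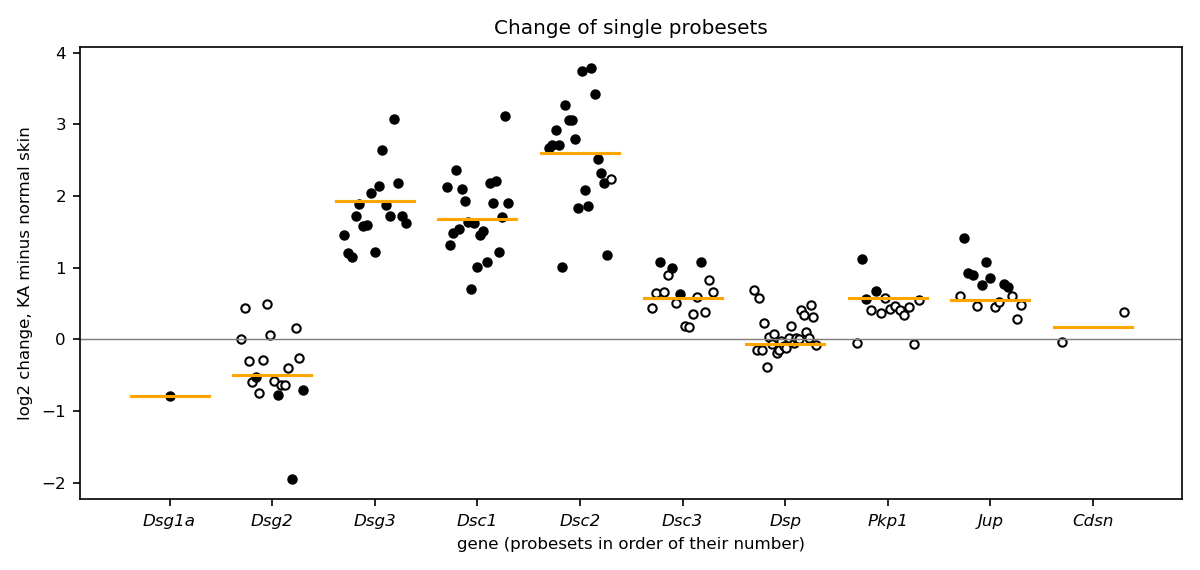
Log2 change of each probeset (y axis, keratoacanthoma minus normal skin) for the 10 genes (x axis, probesets in order of their number); filled points passed the test over all probesets, open points did not, and orange lines mark the change of the gene value. All probesets of Dsg3 and Dsc1 are filled and positive, those of Dsp are open and lie around 0, and Dsg2 has points on both sides of 0.

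The same genes were then set against the epithelial content of each piece, by subtracting the array's mean of the 8 pan-epithelial genes. On this scale 3 of the 10 were higher (Dsg3, Dsc1 and Dsc2) and 4 lower (Dsg1a, Dsg2, Dsp and Cdsn), where 2.06% of all genes were higher and 75.9% lower. The pan-epithelial mean itself was higher by 0.72 in the tumours, which shifts all genes down on this scale. Dsc2, Dsg3 and Dsc1 were higher by 1.88 (adjusted p = 0.00017), 1.22 (3.9e-05) and 0.96 (0.00034), and for each of them the groups did not overlap, where 0.978% of all genes lay wholly higher and 49.3% wholly lower. Pkp1, Jup and Dsc3 stood at -0.15, -0.16 and -0.15 (adjusted p = 0.46, 0.40 and 0.45), so that beside the epithelial genes no rise of theirs passed the test. Dsp was lower by 0.78 (adjusted p = 0.0011) and Cdsn by 0.55 (0.016) relative to those genes, where the median of all genes stood at -0.76. Dsg1a and Dsg2 differed by -1.51 (adjusted p = 3.8e-06) and -1.22 (0.00015). Krt14, Trp63, Esrp1 and Rab25, 4 of the 8, were themselves called higher, so this scale is relative to genes that also changed.

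**Figure D4:**
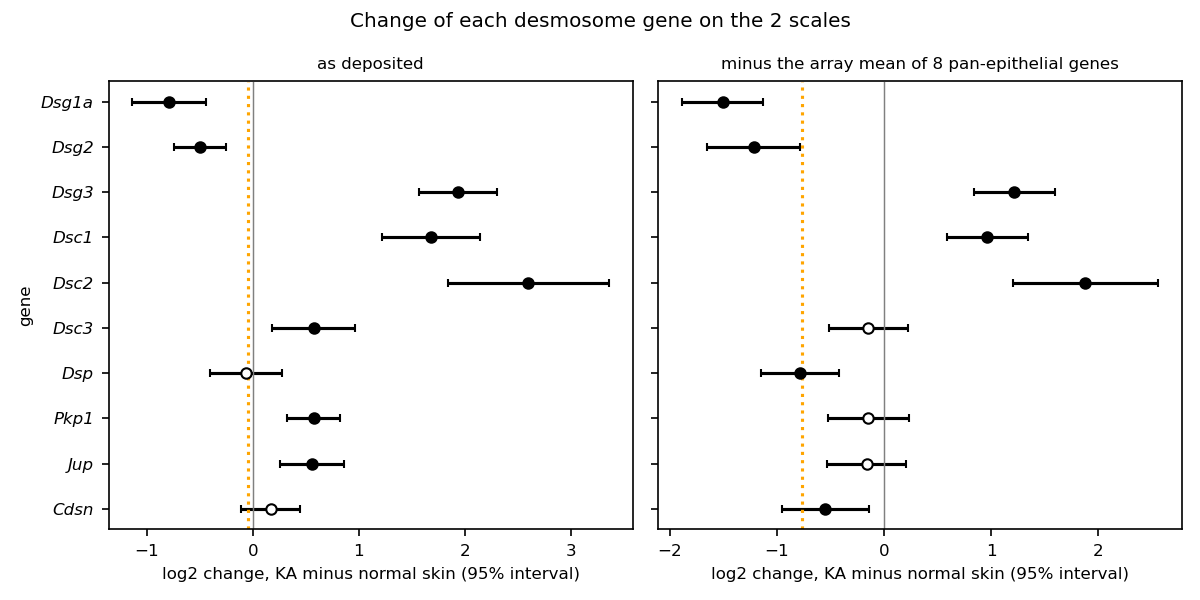
Log2 change with its 95% interval (x axis, keratoacanthoma minus normal skin) of the 10 genes (y axis), on the deposited values (left) and after subtracting each array's mean of 8 pan-epithelial genes (right). Filled points passed the test, open points did not, and the orange dotted line is the median of all genes. Dsc2, Dsg3 and Dsc1 stay on the positive side in both panels, while Dsc3, Pkp1 and Jup lie near 0 in the right one.

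Compared with normal skin of the same genotype, 6 of the 10 genes were higher and 0 lower, where 10.6% of all genes were higher and 6.93% lower. The genes that were higher were the same 6. Dsc1 and Dsg3 each rose by 2.13 on the log2 scale (adjusted p = 0.00061 and 0.00048), Dsc2 by 2.25 (0.011), Dsc3 by 0.89 (0.017), Jup by 0.72 (0.026) and Pkp1 by 0.68 (0.014). Dsg1a stood at -0.55 (adjusted p = 0.088) and Dsg2 at -0.43 (adjusted p = 0.094), both with an unadjusted p below 0.05 in the limma fit. The skins of that genotype were normal skin 1, high in hair keratins, and normal skin 2, lowest in the pan-epithelial mean, and the part of either in these values was not tested.

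Without a tumour, no difference between transgene carriers passed the test in these genes. Between normal skin of double transgenic mice (n = 2) and of single transgenic mice (n = 4), limma called 0 of the 10, with Dsc1 and Dsp the 2 genes at an unadjusted p under 0.05 (lowest adjusted p of the 10 = 0.44), where 0.00983% of all genes were called higher and 0.00491% lower. Over all genes 10.2% had an unadjusted p under 0.05 in that comparison, so 2 of 10 are read against that share. Dsg3 averaged 7.87 in double and 8.16 in single transgenic skin, a log2 difference of -0.29 (95% interval -0.83 to 0.25). For Dsc1 the averages were 8.76 and 9.43, a difference of -0.67 (95% interval -1.24 to -0.10), and for Dsp 10.65 and 11.12, a difference of -0.46 (95% interval -0.89 to -0.03), with double transgenic skin given first. Dsc2 averaged 6.66 in double and 6.14 in single transgenic skin (95% interval of the difference -0.58 to 1.63).

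The spread between arrays of a group, which was not tested, differed between tumours and skin. The SD was smaller in keratoacanthoma than in normal skin for 9 of the 10 genes, the exception being Dsg2 (0.22 in the tumours and 0.11 in normal skin). The same held for 70.3% of all genes, with a median SD of 0.189 in the tumours and 0.255 in normal skin. For Dsc1 it was 0.15 in the tumours and 0.52 in normal skin, and for Dsp 0.12 in the tumours and 0.35 in normal skin. Normal skin 2 was the lowest normal skin for 8 of the 10 genes. It was also the lowest in the pan-epithelial mean and the highest in the skeletal muscle mean (11.76), whose part was not tested.

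Likeness of profile was taken as the Euclidean distance between log2 values over the 11 arrays, each gene centred on its mean. Values were not scaled to a common spread, so the distance also depends on the size of a gene's change. Dsg3 and Dsc1 lay at a distance of 0.71 from each other, and for each only 2 of all other genes lay nearer. The nearest gene to Dsg3 was Galnt3, a glycosyltransferase (0.70), and the nearest to Dsc1 was Sqle, squalene epoxidase of cholesterol synthesis (0.65). Jup and Pkp1 were each other's nearest among the 10 (0.49), but many other genes lay nearer to each. Among all other genes Pkp1 ranked 59 in nearness to Jup, and Jup ranked 52 in nearness to Pkp1. Dsc2 lay farther from the others, at 2.18 from Dsg3, and its nearest gene was Tnc, the matrix protein tenascin C (0.57), which rose by 2.79. The nearest gene to Dsg1a was Cttnbp2, at 0.52. Tank lay nearest to Jup (0.21), Vps4b to Pkp1 (0.34), Eif3e to Dsc3 (0.29), Fam234a to Dsp (0.32) and Cmc1 to Cdsn (0.19).

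Of the 9 further desmosome genes listed, 4 were higher and 1 lower, where 14.5% of all genes were higher and 10.8% lower. The median log2 change of the 9 was 0.23. Besides Dsg1b and Dsg1c, the plakophilins Pkp3 (0.53, adjusted p = 0.0071) and Pkp4 (0.53, 0.0075) were higher. Pkp2, the plakophilin of heart and simple epithelia, fell by 0.51 (0.014). Pkp3 was not called with the mean over probesets (0.20, adjusted p = 0.086) or against the 2 normal skins of double transgenic mice alone (0.58, adjusted p = 0.077). Pkp2 lost its call once dim probesets were left out (-0.18, adjusted p = 0.26), gene values were quantile normalized (-0.41, adjusted p = 0.051) or the title's number was a block (-0.47, adjusted p = 0.052), and in the first and last of these no gene of the 9 was lower. The membrane protein Perp and the plakins Evpl and Ppl were at 0.23, 0.02 and -0.28 (adjusted p = 0.33, 0.91 and 0.18).

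Dsg4, the desmoglein of the hair shaft, had 4.99, 5.26, 5.56, 7.10 and 5.75 in the tumours. Normal skin 1 and 3 had 8.18 and 7.49 and the remaining 4 skins 4.27 to 4.77. Its 3 highest values were thus in the 3 arrays high in hair keratins, and the log2 change was 0.08 (95% interval -1.43 to 1.60). Without normal skin 1 and 3 it was 1.18 (adjusted p = 0.028), and without keratoacanthoma 4 as well it was 0.84 (adjusted p = 0.0076). The remaining skins lay below the 25th percentile of all probesets (4.96), so the size of these changes is uncertain.

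Genes that cut or protect corneodesmosomes were mostly higher. Of 14, 9 were higher and 0 lower (0 also at an unadjusted p below 0.05 in limma), with a median log2 change of 1.03. Over all genes 14.5% were higher and 10.8% lower at the adjusted threshold, and 3544 of 20352 were lower at the unadjusted one. The serine proteases Klk13, Klk6 and Klk8 rose by 3.84, 3.59 and 2.57, and Klk5 and Klk7, known to cleave corneodesmosin, by 1.54 and 1.12. The inhibitor Spink12 rose by 4.78, while Spink5, which encodes the inhibitor LEKTI, stood at 0.42 (adjusted p = 0.11).

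Keratins, the filaments that desmosomes anchor, were mostly higher. Of 11, 7 were higher and 2 lower, with a median of 0.97, where 14.5% of all genes were higher and 10.8% lower. Krt6b, Krt16 and Krt6a, keratins of wounded epidermis, rose by 4.34, 3.68 and 3.01. Krt17, the basal keratin Krt14 and the suprabasal keratin Krt1 rose by 1.23, 1.19 and 0.97. Krt77, also suprabasal, and Krt15, also basal, fell by 2.60 and 0.54. The count of keratins that fell was 1 without keratoacanthoma 2 or 5 or normal skin 4, 5 or 6. Krt5 and Krt10 did not pass (0.25 and -0.03; adjusted p = 0.095 and 0.88).

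Genes of other junctions are set beside the shares over all genes, 14.5% higher and 10.8% lower. Of 13 adherens junction genes, 3 were higher and 1 lower (median 0.31): P-cadherin (Cdh3) rose by 1.00, p120 catenin (Ctnnd1) by 0.80 and beta-catenin (Ctnnb1) by 0.46, and Nectin3 fell by 1.69. E-cadherin (Cdh1) differed by 0.52 (adjusted p = 0.053). With the mean over probesets 7 adherens junction genes were higher, where 3667 of all 20352 genes were higher, in place of 2959. Of 15 measured tight junction genes, 4 were higher and 2 lower (median -0.14), with Cldn8 at 1.64, the junctional adhesion molecule F11r at 0.71 and the scaffold Tjp1 at 0.67 on the higher side and cingulin (Cgn) and tricellulin (Marveld2) each at -0.72 on the lower. The count of tight junction genes that fell was 1 without keratoacanthoma 1, 2, 3 or 5 or normal skin 2, 4 or 6.

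Of 17 genes known to control desmosome genes or to remodel the junction, 8 were higher and 0 lower, with a median of 0.38. At an unadjusted p below 0.05 in limma, 1 was lower, where 3544 of all 20352 genes were lower at that threshold. Over all genes 14.5% were called higher and 10.8% lower at the adjusted threshold. The transcription factors Klf5, Grhl3 and Ovol1 rose by 1.31, 1.00 and 0.98, and p63 (Trp63), which acts on many junction genes, by 0.71. The sheddase Adam10 rose by 1.15 and the keratinocyte factor Zfp750 by 0.64. Grhl1, a grainyhead factor that acts on desmoglein 1 in mouse epidermis, differed by 0.16 (adjusted p = 0.52). The count that rose was 5 without keratoacanthoma 4 or 5, and 4 after quantile normalization of the gene values. Of all 20352 genes, 2718, 2406 and 2408 rose in these settings, in that order.

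**Figure D5:**
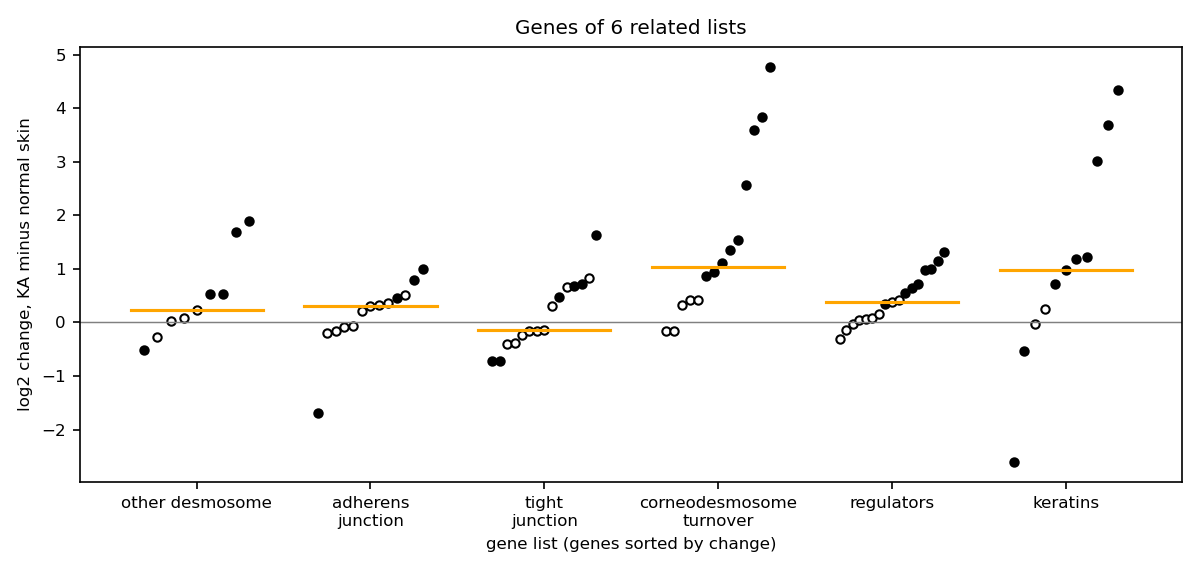
Log2 change (y axis, keratoacanthoma minus normal skin) of the genes in 6 lists (x axis, genes sorted within a list); filled points passed the test, open points did not, and orange lines are list medians. The genes of corneodesmosome turnover reach 4.78 and the keratins 4.34, while the tight junction genes lie on both sides of 0.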

How the data were processed

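Total RNA of snap-frozen pieces was amplified and hybridised to whole-transcript arrays, 1 per sample, per the labels' protocols. The deposited table holds log2 values of 241576 probesets; the submitters' processing notes name RMA, Partek and build mm9, and settings were not given in the sources used here. RMA equalises the distribution of values between arrays, so that changes are relative to the rest of each array.

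Annotation gave 212097 probesets a single gene. Of these, 590 with values identical to another of their gene were dropped, and 2742 older symbols were updated. Probesets of several or no genes (4475 and 25004) were left out, except the 14 shared by Dsg1 genes. Precision is limited by the number of arrays, and dim probesets are those below the 25th percentile.

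Groups were compared with limma 3.58.1 in R 4.3.3 (lmFit, eBayes; Benjamini-Hochberg over the whole table), in 2 groups, and in 4 groups for genotype. The fit was tested on simulated data. Figures used Python 3.11.15 and matplotlib 3.10.9. The members and lists were chosen with earlier results of these data known. All 10 genes and 9 further desmosome genes are named, up to 6 called genes per direction of other lists, nearest profiles, and probesets at the ends of the range; Spink5, Klk7, Krt5, Krt10, Cdh1 and Grhl1 were chosen after their values were seen. Alternatives were other summaries, filters, scalings, variance models, references, a hair keratin covariate, blocks by title number and left-out arrays. The arrays high in hair keratins, keratoacanthoma 4 included, were left out together as an alternative chosen after seeing the data.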

Additional observations from a re-analysis of the deposited data

Results flagged for a closer look

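Of 38 groups of arrays examined over the 10 genes and the 9 further desmosome genes, 4 held an array far from the others by Dixon's criterion, which chance meets in about 1 of 20 groups. In normal skin, normal skin 2 was the low array in 3 of them. Dsg3 was 7.34 there and 8.01 in the next skin, Dsc1 was 8.19 there and 9.21 in the next, and Jup was 8.24 there and 8.72 in the next. The same array had the lowest pan-epithelial mean of all, 8.13. In the tumours, Evpl, an envelope plakin, was 6.67 in keratoacanthoma 4 and 6.89 in the next lowest tumour.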

How the results depend on the processing

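Over 25 alternatives for each of the 10 genes, 234 of 250 results kept direction and side of the threshold, and all 25 did for Dsg3, Dsc1 and Dsc2. With each array left out in turn, 5 to 6 genes were higher and 2 lower. Of the 6 related lists, 30 to 36 genes were higher and 4 to 7 lower, in place of 35 and 6. Of all 20352 genes, 2406 to 2942 were higher and 1612 to 2207 lower in these fits. With arrays centred on the pan-epithelial list, whose construction shifts all genes down, 3 of the 10 were higher and 4 lower. Of the 79 measured list genes, 15 were higher and 32 lower, where 2.06% of all genes were higher and 75.9% lower. On that scale Dsc3 (-0.15), Pkp1 (-0.15), Jup (-0.16), Cdsn (-0.55), Pkp3 (-0.19), Pkp4 (-0.19), Perp (-0.49) and Evpl (-0.70) turned negative, as did Dsg4. With the 2 normal skins of double transgenic mice alone as reference, which leaves fewer arrays, 0 of the 10 were lower (Dsg1a -0.55, adjusted p = 0.11; Dsg2 -0.43, 0.12). Quantile normalization of the gene values ended the calls of Dsc3 (0.36, adjusted p = 0.16) and Jup (0.26, 0.18); the cause was not tested. Single transgenic skin alone as reference ended that of Dsc3 (0.42, adjusted p = 0.072). Without normal skin 1 and 3, or also without keratoacanthoma 4, 5 of the 10 were higher and 2 lower. Of all 20352 genes, 2826 and 2646 were then higher and 2187 and 2036 lower. With the title's number as a replicate block (the 10 arrays with a partner number), 6 of the 10 genes were higher and 2 lower. Of the list genes, 34 were higher and 3 lower, where 2596 of all 20352 genes were higher and 1716 lower. Deviations of same-numbered arrays had correlations of -0.18 to 0.10 over 5 pairs. These values cannot tell whether a pair shares an animal or a batch.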
